A study of Mus musculus with 28 samples.

Results

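The genes described here are macrophage and leukocyte genes, chosen by symbol: 40 of the 45513 genes in the deposited table of raw counts from mouse hearts. They comprise 9 genes used as markers of resident heart macrophages, 9 general macrophage genes, 9 monocyte and innate receptor genes, 2 genes of lipid-handling phagocytes, 8 genes shared by most leukocytes and 3 lymphocyte genes. The RNA came from the ventricular myocardium of 28 adult male C57BL/6 mice, with 1 library per mouse, after the circulation had been flushed with PBS. At 6 weeks of age the mice had either a 5/6 nephrectomy, a surgical model of chronic kidney disease (CKD), or a sham operation. All 4 groups ate a diet supplemented with 1% hydroxyproline, which the body turns into oxalate, and 0.5% calcium, so both arms of every comparison shared the diet. On day 7 each mouse received by gavage either Oxalobacter formigenes (Oxf), a gut bacterium that degrades oxalate, or its culture medium as vehicle. The libraries analysed were 10 of sham mice with vehicle (mice 901 to 910), 6 of CKD mice with vehicle, 5 of sham mice with Oxf (mice 921, 923, 925, 927 and 929) and 7 of CKD mice with Oxf; the study planned 10 mice per group, and the others were not analysed here.

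The healthy heart holds a standing population of resident macrophages, which carry scavenger and efferocytosis receptors such as CD163, the mannose receptor and MERTK and clear dying cells and debris from cardiomyocytes. These cells depend on the growth factor receptor encoded by Csf1r. In injury, monocytes from the blood enter the muscle and add a second, more inflammatory population, while lymphocytes are normally sparse. In RNA from whole tissue, fewer cells of a type and less RNA per cell cannot be told apart.

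The libraries held between 19798965 and 65378162 counted reads. All 7 cardiomyocyte markers checked (Myh6, Actc1, Tnnt2, Tnni3, Ryr2, Pln and Myl2) were detected in every library, with a summed level of 16910 to 43140 CPM (counts relative to the size of the library, which was scaled here with the trimmed mean of M values). The library of mouse 921, a sham mouse with Oxf, stood apart: it was the shallowest, and 15879 genes had a count in it, against 27128 to 33995 in the other 27. Of 21581 genes with an average level within the range of the 40 members, 39.5% had no read in mouse 921, against 0.0185% to 3.35% elsewhere. Each comparison was therefore made with all 28 libraries and again with the 27 libraries left without mouse 921.

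In its library 15 of the 40 members (37.5%) had a count of 0, close to the 39.5% of genes in the same range of levels. A count of 0 allows a level of up to 0.142 CPM (3 reads, counting error only). They were Clec10a among the resident genes, Cd68, Fcgr1 and Lyz1 among the general macrophage genes, Itgam, Itgax, Tlr2 and Cd86 among the innate genes, both lipid-phagocyte genes Trem2 and Gpnmb, the signalling adaptors Tyrobp and Fcer1g, and the lymphocyte genes Cd3e, Cd79a and Nkg7. In the other 27 libraries the only member with a count of 0 was Nkg7, in mice 927, 934 and 935. Mouse 921 was the lowest of all 28 libraries for 21 members and the highest for 4: Timd4 (4.89 CPM), Folr2 (2.37 CPM), Cd14 (3.42 CPM) and Fcgr3 (7.49 CPM). Csf1r, at 33.4 CPM, lay within the range of the other sham mice with Oxf. The heatmap of the 40 members shows mouse 921 as a column of zeros and extremes, beside columns of mice 923 and 936 that are high in a different block of genes.

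**Figure D1:**
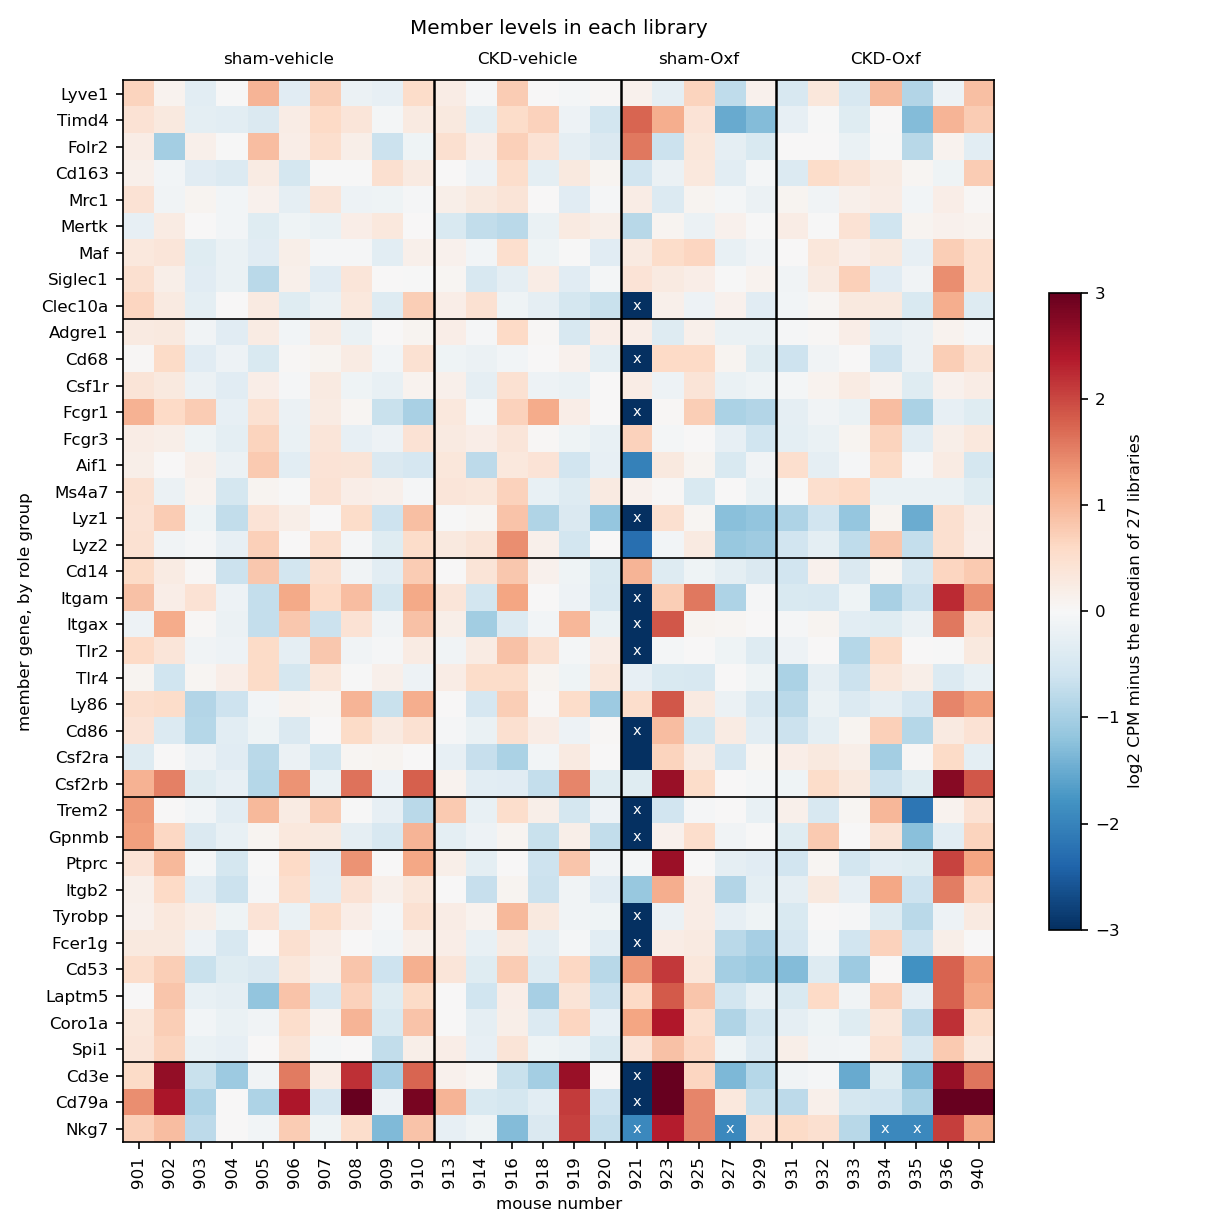
Levels of the 40 members in the 28 hearts. Rows are genes grouped by role and columns are mice grouped by surgery and gavage; colour is the log2 CPM minus the median of the gene over the 27 libraries without mouse 921, and a cross marks a count of 0. Mouse 921 has 15 crosses, and the leukocyte and lymphocyte rows are high in mice 923 and 936.

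Compared per kilobase of exon, so that long and short genes could be set side by side, the members spanned a wide range (medians over the 27 libraries). Lyz2, the lysozyme of macrophages and other myeloid cells, had the highest level at 32.4 CPM per kb. It was followed by the resident genes Mertk at 6.42 and Mrc1 at 5.94 CPM per kb, the leukocyte gene Laptm5 at 5.03, Csf1r at 4.99, Cd163 at 4.91 and Lyve1 at 4.60 CPM per kb. The T cell receptor subunit gene Cd3e was the lowest at 0.102 CPM per kb, next to Itgam (an integrin of monocytes and neutrophils) at 0.132 and Nkg7 (a granule gene of natural killer and cytotoxic T cells) at 0.154 CPM per kb. Of the 9 resident genes, 4 were among the 7 highest members per length, and the others ranked 14 to 29 of 40. Of the lymphocyte genes, Cd79a ranked 28, just above the resident gene Folr2 at 29. Lyz1 and Lyz2 are neighbouring, closely similar copies on chromosome 10, and reads that fit both could be split between them in a way the sources used here do not describe.

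No member was called in any comparison, with or without mouse 921. The call required an adjusted p under 0.05 from edgeR's quasi-likelihood test with Benjamini-Hochberg adjustment over all genes tested (24273 with 28 libraries, 24810 with 27); all 40 members passed the filter on low counts in both fits. The comparisons were CKD against sham under vehicle, CKD against sham under Oxf, Oxf against vehicle in CKD mice, Oxf against vehicle in sham mice, the difference between the Oxf effects of CKD and sham mice (the interaction), the surgery difference averaged over both gavages, and the Oxf difference averaged over both surgeries. They share samples, so their results are not independent of each other. The shares of all genes called with 28 libraries were 0.00824% for CKD against sham under vehicle, 0.033% for Oxf against vehicle in CKD mice, 2.81% for the averaged Oxf difference and 0 for the other four. With 27 libraries they were 0.00806%, 0.0766%, 3.5% and 0. Other tools gave few member calls: DESeq2 called 1 member, Tlr4, for the averaged Oxf difference, and limma voom with sample weights called 2 members each for Oxf in CKD mice (Mertk and Tlr4) and for the averaged Oxf difference (Lyz2 and Tlr4). Of all genes with an adjusted p, DESeq2 called 9.97% and limma voom 22% for the averaged Oxf difference, and 0.785% and 15% for Oxf in CKD mice. With 27 libraries, where both tools called as many members, the shares were 14% and 21.1%, and 2.13% and 13.9%. Neither tool called a member in the other 5 comparisons.

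In hearts of mice given vehicle, the resident and general macrophage genes lay at similar levels after 5/6 nephrectomy and after sham surgery. Mrc1, the mannose receptor, ranged from 31.4 to 51.1 CPM in the 10 sham mice (median 36.4 CPM) and from 30.01 to 49.5 CPM in the 6 CKD mice (median 40.4 CPM). Cd163, the haemoglobin scavenger receptor, ranged from 18.7 to 37.3 CPM (median 26.6 CPM) in sham mice and from 22 to 38.4 CPM (median 27.5 CPM) in CKD mice. Both pairs of ranges overlapped over most of their width. Lyve1, a hyaluronan receptor of resident macrophages and lymphatic endothelium, had medians of 13.9 CPM in sham and 13.6 CPM in CKD mice, with mouse 916 highest of the CKD mice at 22.7 CPM. Timd4, a receptor for phosphatidylserine on dying cells, had medians of 1.68 and 1.51 CPM, and Folr2, a folate receptor, 0.859 and 0.966 CPM.

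Among the general macrophage genes, Csf1r ranged from 22.8 to 37.9 CPM in sham mice (median 29.6 CPM) and from 23.8 to 39.7 CPM in CKD mice (median 27.5 CPM). The difference on the log2 scale was -0.03 ± 0.13 (standard error, SE; edgeR adjusted p = 0.982), one of the more tightly measured in the set. Adgre1, which encodes the F4/80 antigen, ranged from 5.40 to 8.402 CPM in sham and from 4.87 to 10.4 CPM in CKD mice, a log2 difference of 0.06 ± 0.14 (edgeR adjusted p = 0.965). Lyz2 ranged from 33.1 to 70.3 CPM in sham mice and from 29.0 to 112 CPM in CKD mice, the highest value again being mouse 916. Cd68, a lysosomal protein of phagocytes, had medians of 3.05 and 2.77 CPM, and Fcgr1, the high-affinity IgG receptor, 0.643 and 0.694 CPM.

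The member with the smallest p for CKD against sham under vehicle was Tlr4, the receptor for bacterial lipopolysaccharide (chr4:66827584-66930284, plus strand, GRCm38 gene model of GENCODE M21). It ranged from 12.9 to 29.1 CPM in sham mice (median 20.6 CPM) and from 17.8 to 28.9 CPM in CKD mice (median 23.8 CPM), and 4 of 6 CKD mice lay above the sham median. Its log2 difference was 0.24 ± 0.17 (SE; edgeR p = 0.171, adjusted p = 0.955), and 0.14 without mouse 916 and 0.16 without mouse 914. Mertk, a receptor with which macrophages take up dying cells, was next, with a log2 difference of -0.23 ± 0.17 (edgeR p = 0.184, adjusted p = 0.955); 4 of 6 CKD mice were below the sham median of 27.01 CPM. The Mertk difference was -0.35 without mouse 919 and turned to 0.005081 with a score of circadian clock genes as a covariate. Without mouse 921 the smallest p was that of Gpnmb, a glycoprotein of lipid-laden phagocytes, at -0.57 ± 0.28 (edgeR p = 0.0532, adjusted p = 0.683). Gpnmb ranged from 1.52 to 5.10 CPM in sham mice and from 1.25 to 2.41 CPM in CKD mice, so the ranges overlapped. Trem2, a lipid receptor of such phagocytes, had medians of 1.16 CPM in sham and 1.18 CPM in CKD mice.

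Over the whole set, 26 of 40 members had a log2 difference below 0 for CKD against sham under vehicle, and their median was -0.12, against -0.03 over all genes tested. It ran from -0.19 without mouse 916 to -0.05 without mouse 901, and was -0.003942 with the log2 7SL share (7SL is an abundant non-coding RNA) as a covariate. No member reached even an unadjusted p under 0.05, which 4.46% of all genes did; with 27 libraries none did either, against 7.24%. The resident genes had a median log2 difference of 0.01 and the general macrophage genes of -0.01, while the pan-leukocyte genes stood at -0.24 (7 of 8 below 0) and the lymphocyte genes at -0.39. The medians of these 4 groups were the same to the second decimal without mouse 921. The SE of the individual lymphocyte genes was large: Cd79a, a subunit of the B cell receptor (chr7:24897381-24902197, plus strand), had a log2 difference of -1.13 ± 0.97 (edgeR adjusted p = 0.955). Cd79a ranged from 0.361 to 6.59 CPM in sham mice and from 0.462 to 3.27 CPM in CKD mice, where mouse 919 was the highest.

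**Figure D2:**
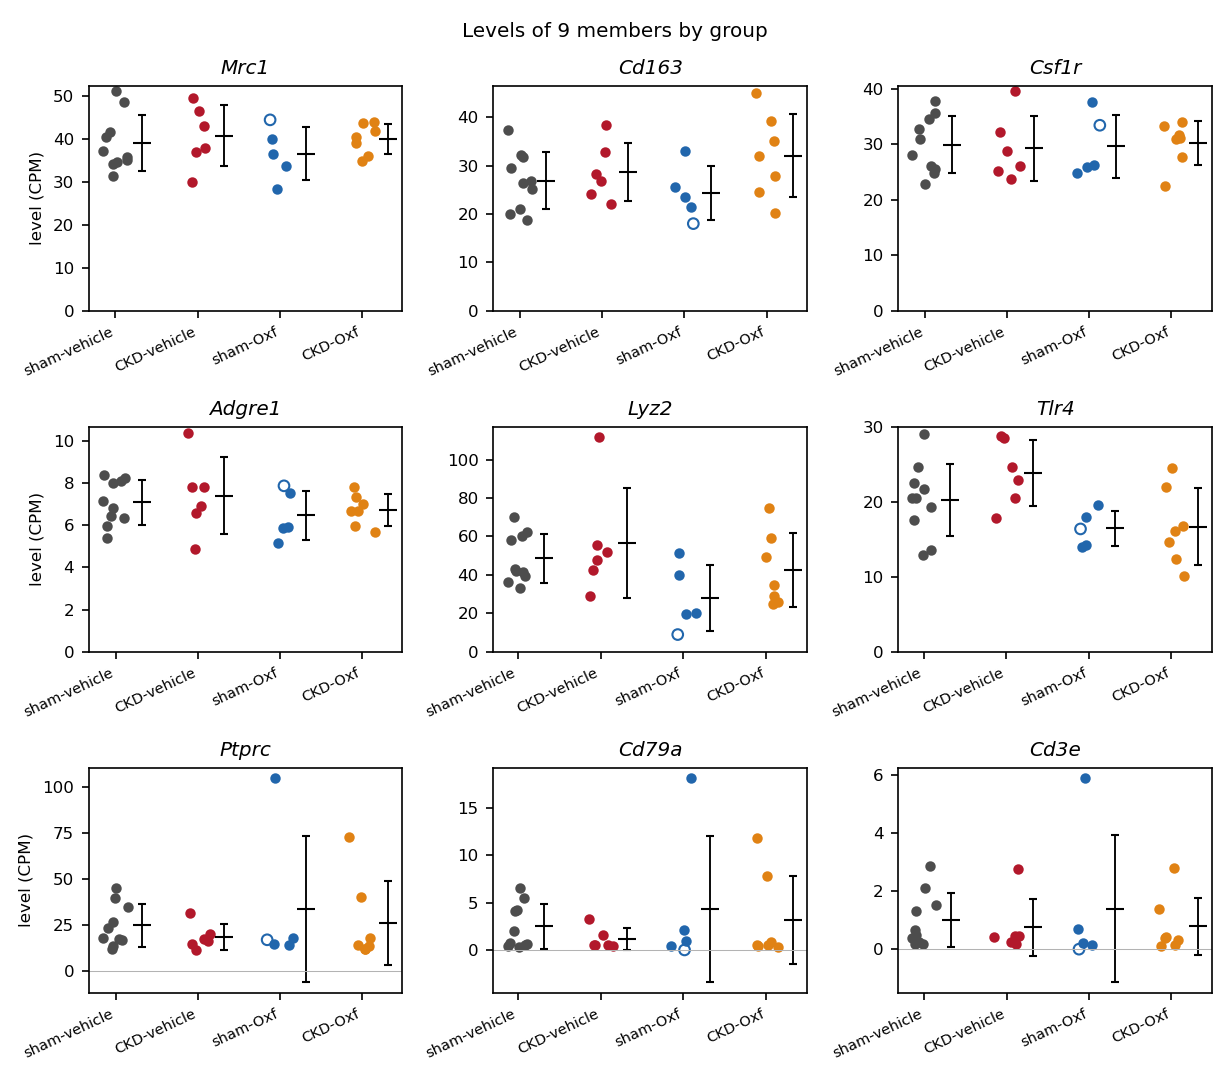
CPM of 9 members in the 4 groups. Each point is a mouse, the open circle is mouse 921, and bars give the mean and SD of the group. Mrc1, Cd163, Csf1r and Adgre1 fill narrow, overlapping ranges in all groups, whereas Ptprc, Cd79a and Cd3e spread widely in each group, with mouse 923 the highest for all 3.

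Among CKD mice, the comparison of Oxf with vehicle gave the smallest p among members to Tlr4. Tlr4 ranged from 10.2 to 24.6 CPM in the 7 CKD mice with Oxf (median 16.2 CPM), against 17.8 to 28.9 CPM with vehicle (median 23.8 CPM). Of the mice with Oxf, 6 of 7 lay below the vehicle median and 5 below every mouse with vehicle; the exception at the top was mouse 934, at 24.6 CPM. The log2 difference was -0.52 ± 0.18 (SE; edgeR p = 0.00856, adjusted p = 0.261). Without mouse 921 it was -0.52 ± 0.19 (edgeR adjusted p = 0.180). The call changed in 2 of 37 alternatives, namely limma voom (-0.58, adjusted p = 0.0153) and the edgeR fit without mouse 934 (-0.63, adjusted p = 0.0454). Mouse 934 had the highest 7SL share of the CKD mice with Oxf, 20.6%. With the log2 7SL share as a covariate the Tlr4 difference was -0.37 (edgeR adjusted p = 0.421). With the clock gene score as a covariate it was -0.59 (edgeR p = 0.0516, adjusted p = 0.9999).

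Siglec1, the sialic-acid receptor also known as CD169 on resident macrophages, was second. It ranged from 4.24 to 6.93 CPM in CKD mice with vehicle and from 4.66 to 15.6 CPM in those with Oxf. Of the 7 mice with Oxf, 6 were above the vehicle median and 4 above every vehicle mouse, with mouse 936 the highest. The log2 difference was 0.57 ± 0.23 (SE; edgeR p = 0.0171, adjusted p = 0.300), and 0.33 without mouse 936 (edgeR adjusted p = 0.581). The integrin chain Itgb2 and the lysosomal leukocyte gene Laptm5, named after their values had been seen, were the other 2 with a higher level at an unadjusted p under 0.05. Their log2 differences were 0.80 ± 0.33 (edgeR adjusted p = 0.312) and 0.88 ± 0.38 (edgeR adjusted p = 0.333), and mouse 936 was the highest of the 7 for both. Without mice 921, 923 and 936 they were 0.55 ± 0.26 and 0.58 ± 0.33 (edgeR adjusted p = 0.324 and 0.399). In all, 4 of 40 members had an unadjusted p under 0.05 in this comparison (3 higher and 1 lower), beside 13.1% of all genes. With 27 libraries there were 5 (3 higher and 2 lower), beside 18.1%.

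The remaining members overlapped between CKD mice with Oxf and with vehicle. Csf1r ranged from 22.5 to 34.0 CPM with Oxf, Mrc1 from 34.9 to 43.9 CPM and Adgre1 from 5.68 to 7.84 CPM, all within or close to the vehicle ranges given above. Cd163 ranged from 20.3 to 45.2 CPM with Oxf (median 32 CPM). For Ptprc (chr1:138062861-138175708, minus strand), which encodes the pan-leukocyte antigen CD45, the range was 11.5 to 31.6 CPM with vehicle (median 17.1 CPM) and 11.96 to 73.2 CPM with Oxf (median 14.2 CPM). The median was thus lower with Oxf while the highest mouse, 936, was far above any vehicle mouse. The fitted log2 difference of Ptprc, which follows the means, was 0.49 ± 0.47 (SE; edgeR adjusted p = 0.674). Csf2rb, the common beta chain of the receptors for GM-CSF and IL-3, ranged from 1.72 to 7.95 CPM with vehicle and from 1.81 to 19.3 CPM with Oxf, and Cd79a from 0.462 to 3.27 and from 0.354 to 11.8 CPM. Mouse 936 was the highest with Oxf for both.

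By role, the median log2 differences of Oxf against vehicle in CKD mice were 0.16 for resident, -0.14 for general macrophage, 0.28 for innate, 0.14 for lipid-phagocyte, 0.38 for pan-leukocyte and 0.29 for lymphocyte genes. Over all 40 members the median was 0.13, and 24 lay above 0; over all genes it was 0.03. The sign of this median rested on 1 library: it was -0.05 without mouse 936, while it was 0.03 without mouse 940 and 0.24 without mouse 931. With the log2 7SL share as a covariate it was -0.07. Without mice 921, 923 and 936 together, 15 of 40 members lay above 0, and the medians of the innate, pan-leukocyte and lymphocyte genes were -0.06, -0.03 and -0.32. Mouse 919, the highest CKD mouse with vehicle for Ptprc and Cd79a, was kept in that fit.

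In sham mice the members with the smallest p for Oxf against vehicle differed more with mouse 921 than without it, in the same direction. Lyz2 was 8.92 CPM in mouse 921, 40.1 in 923, 51.1 in 925, 19.4 in 927 and 20.2 CPM in 929, against 33.1 to 70.3 CPM in the 10 vehicle mice (median 42.5 CPM). Of the 5 mice with Oxf, 3 were below every vehicle mouse, and the other two lay within the vehicle range. The log2 difference was -0.80 ± 0.33 with mouse 921 (SE; edgeR p = 0.0219, adjusted p = 0.314) and -0.57 ± 0.32 without it (edgeR adjusted p = 0.574). Tlr2, the receptor for bacterial lipopeptides, had no read in mouse 921 and levels of 1.37, 1.46, 1.32 and 1.09 CPM in mice 923, 925, 927 and 929. The 10 vehicle mice ranged from 1.19 to 2.55 CPM (median 1.57 CPM), so all 5 Oxf values were below the vehicle median. The log2 difference of Tlr2 was -0.68 ± 0.39 (SE; edgeR p = 0.0906, adjusted p = 0.468) with mouse 921 and -0.38 ± 0.24 (edgeR adjusted p = 0.597) without it.

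Cd14, the co-receptor of Tlr4 for lipopolysaccharide, showed the opposite dependence. Its level was 3.42 CPM in mouse 921, the highest of the 28 libraries, and 1.26, 1.52, 1.35 and 1.22 CPM in the other 4 sham mice with Oxf. The vehicle range was 1.04 to 2.94 CPM. Its log2 difference changed from -0.15 ± 0.31 (SE; edgeR adjusted p = 0.884) with mouse 921 to -0.53 ± 0.30 without it (edgeR p = 0.0856, adjusted p = 0.573), then the smallest p of any member. Tlr4 itself was 16.4, 14.3, 14.1, 19.6 and 18.0 CPM in mice 921, 923, 925, 927 and 929. All 5 values were below the sham vehicle median of 20.6 CPM and inside the vehicle range, and the log2 difference was -0.30 ± 0.18 (edgeR adjusted p = 0.504).

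The resident genes of sham mice with Oxf followed no common direction. Cd163 was 18.0, 23.6, 33.1, 21.5 and 25.6 CPM in mice 921, 923, 925, 927 and 929, and Mrc1 was 44.4, 28.3, 39.9, 36.4 and 33.6 CPM in the same order. Timd4 was 4.89, 3.06, 1.88, 0.459 and 0.547 CPM, which covers the highest and the lowest levels of that gene among all 28 libraries. Mouse 923 was the highest of this group for 6 of 8 pan-leukocyte and all 3 lymphocyte genes; Tyrobp and Fcer1g were highest in mouse 925, at 1.67 and 4.27 CPM. Ptprc was 17.2 CPM in mouse 921, 105 CPM in 923, 18.0 in 925, 14.7 in 927 and 14.1 CPM in 929. Cd79a was 18.1 CPM in mouse 923, 2.12 in 925, 0.919 in 927 and 0.443 CPM in 929, and had no read in 921. Coro1a, an actin regulator of leukocytes that was highest in the same animal, reached 25.9 CPM in mouse 923 beside 2.57 to 11.1 CPM in the other four.

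Among the 40 members 1 (Lyz2, lower) had an unadjusted p under 0.05 for Oxf in sham mice, against 12.6% of all genes; without mouse 921 there was none, against 9.23%. With 28 libraries all 9 general macrophage genes had a log2 difference below 0 (median -0.17), and 8 of 9 did without mouse 921 (median -0.23). The innate genes had a median of -0.13 with mouse 921 and 0.17 without it, so that the sign of this group's median depended on 1 library. The pan-leukocyte genes stayed at 0.36 and 0.35 and the lymphocyte genes were at 0.80 with and 1.11 without mouse 921. These medians turned without mice 921, 923 and 936: the pan-leukocyte genes were then at -0.47, with 0 of 8 above 0, and the lymphocyte genes at -1.12. Vehicle mice with high levels of these genes, such as mouse 908, were kept in that fit.

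Under Oxf, the comparison of CKD with sham mice again rested in part on mouse 921. Cd163 was the member with the smallest p: its 7 CKD values ran from 20.3 to 45.2 CPM against the 5 sham values of 18.0 to 33.1 CPM given above. Of the CKD mice 6 of 7 were above the sham median, and the ranges overlapped. The log2 difference was 0.39 ± 0.19 (SE; edgeR p = 0.049, adjusted p = 0.602), and 0.30 ± 0.20 without mouse 921 (edgeR adjusted p = 0.807). For Lyz2 it was 0.60 ± 0.34 (edgeR adjusted p = 0.710), with all 7 CKD mice above the sham median, and 0.38 ± 0.34 (edgeR adjusted p = 0.850) without mouse 921. It was 0.40 without mouse 934. Against the sham median of the 27 libraries, 5 of 7 CKD mice were above for Cd163 and 5 of 7 for Lyz2. The first was the only member at an unadjusted p under 0.05, against 8.23% of all genes; without mouse 921 no member was, against 6.92%. The median over the members was 0.11 with and 0.03 without mouse 921, and that over all genes 0.05 and -0.00; without mouse 923 the members' median was 0.37. Fcgr3, a low-affinity IgG receptor that is highest in mouse 921, had the smallest p in the 27 libraries, with a log2 difference of 0.31 ± 0.20 (edgeR adjusted p = 0.806).

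For the interaction, Itgb2 had the smallest p among the members. Its levels in sham mice were 4.67 to 11.1 CPM with vehicle and 3.32, 15.6, 8.63, 3.95 and 6.01 CPM with Oxf in mice 921, 923, 925, 927 and 929; in CKD mice they were 4.53 to 7.80 CPM with vehicle and 4.71 to 21.2 CPM with Oxf. The difference between the Oxf effects was 0.90 ± 0.46 on the log2 scale (SE; edgeR p = 0.0595, adjusted p = 1), and 0.71 ± 0.45 without mouse 921; it was 1.35 without mouse 923. Mertk followed at 0.42 ± 0.25 (edgeR adjusted p = 1). No member had an unadjusted p under 0.05, against 3.55% of all genes with 28 and 2.66% with 27 libraries. The surgery difference averaged over both gavages was likewise without a member at that level, against 10.6% of all genes with 28 and 13.5% with 27 libraries. Its 2 smallest p values belonged to Cd163 (0.24 ± 0.13, edgeR adjusted p = 0.502) and Lyz2 (0.41 ± 0.23, edgeR adjusted p = 0.520), with a median over the members of 0.01 beside -0.00 over all genes. Without mouse 921 they were 0.20 ± 0.13 and 0.30 ± 0.22 (edgeR adjusted p = 0.475 and 0.517), and Lyz2 was 0.22 without mouse 916. The members' median was -0.06 without mouse 916 and 0.13 without mouse 923.

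Averaged over both surgeries, the Oxf difference was the comparison with the largest share of all genes called, and Tlr4 was the member nearest to a call. Its averaged log2 difference was -0.41 ± 0.13 (SE; edgeR p = 0.00386, adjusted p = 0.0696), and -0.41 ± 0.14 without mouse 921 (edgeR adjusted p = 0.0738). The value was below 0 in each of 36 alternatives, from -0.47 to -0.18, and passed the threshold in 7 of them. The share of counts from 7SL RNA ranged from 2.30% to 19.9% in sham and 2.26% to 20.98% in CKD mice with vehicle, and from 1.83% to 10.3% in sham and 1.95% to 20.6% in CKD mice with Oxf. With the log2 7SL share as a covariate the Tlr4 difference was -0.18 (edgeR adjusted p = 0.407). With the clock gene score as a covariate it was -0.47 (edgeR adjusted p = 0.669). That score ran from -0.468 to 1.76 in CKD mice with vehicle and from 1.93 to 3.98 in CKD mice with Oxf. These ranges did not overlap, so gavage and clock score could not be told apart in CKD mice. In sham mice it ran from 0.436 to 4.05 with vehicle and from 2.87 to 4.38 with Oxf.

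Laptm5 was second, with an averaged log2 difference of 0.73 ± 0.26 (SE; edgeR p = 0.009995, adjusted p = 0.106). Without mice 921, 923 and 936 it was 0.26 ± 0.24 (edgeR adjusted p = 0.573), with the log2 7SL share as a covariate 0.32, and with limma voom 0.45. It ranged from 8.4 to 34.4 CPM in sham and from 9.47 to 24.9 CPM in CKD mice with vehicle. With Oxf it was 28.8, 68.1, 33.8, 12.97 and 16.5 CPM in sham mice 921, 923, 925, 927 and 929, and 13.9 to 64.7 CPM in CKD mice, where mouse 936 was highest. Without mouse 921, Tyrobp, the adaptor that couples TREM2 and other receptors to signalling, came second at -0.38 ± 0.14 (edgeR p = 0.0131, adjusted p = 0.101). Its SE was 0.26 when mouse 921, which has no Tyrobp read, was included. Of the 40 members, 5 had an unadjusted p under 0.05 with 28 libraries (3 higher, 2 lower) and 8 with 27 (4 in each direction), against 23% and 26% of all genes.

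By role, the general macrophage genes had a median averaged log2 difference of -0.13 (7 of 9 below 0), the pan-leukocyte genes 0.36 (6 of 8 above 0) and the lymphocyte genes 0.57 (3 of 3 above 0), with the resident genes at 0.01 and the innate genes at 0.14. The positive medians rested on few libraries: without mice 921, 923 and 936 the pan-leukocyte genes were at -0.30 (3 of 8 above 0), the lymphocyte genes at -0.26 (0 of 3 above 0), the innate genes at -0.16 and the general macrophage genes at -0.21 (1 of 9 above 0). All 3 were mice with Oxf, and 923 and 936 were the highest of the 28 libraries for Ptprc. High mice with vehicle were kept, which favours a fall, so the turn of sign does not show a lower level with Oxf. The summed level of the 3 lymphocyte genes had medians of 2.02 CPM in sham mice with vehicle and 1.05 CPM with Oxf, and of 1.015 and 1.018 CPM in CKD mice. The median of sham mice with Oxf depended on mouse 921, which had no read of these genes. Mice 923, 925, 927 and 929 had sums of 24.9, 3.28, 1.05 and 0.859 CPM. Mice 923 and 936, the highest for Ptprc, also had high B cell and adipose marker sums and low 7SL shares, given below. The part of the marker sums in these differences was not tested. The 7SL share entered as a covariate, with the Tlr4 and Laptm5 values given above. The plot of fold changes shows the widening of the error bars from the macrophage to the lymphocyte genes.

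**Figure D3:**
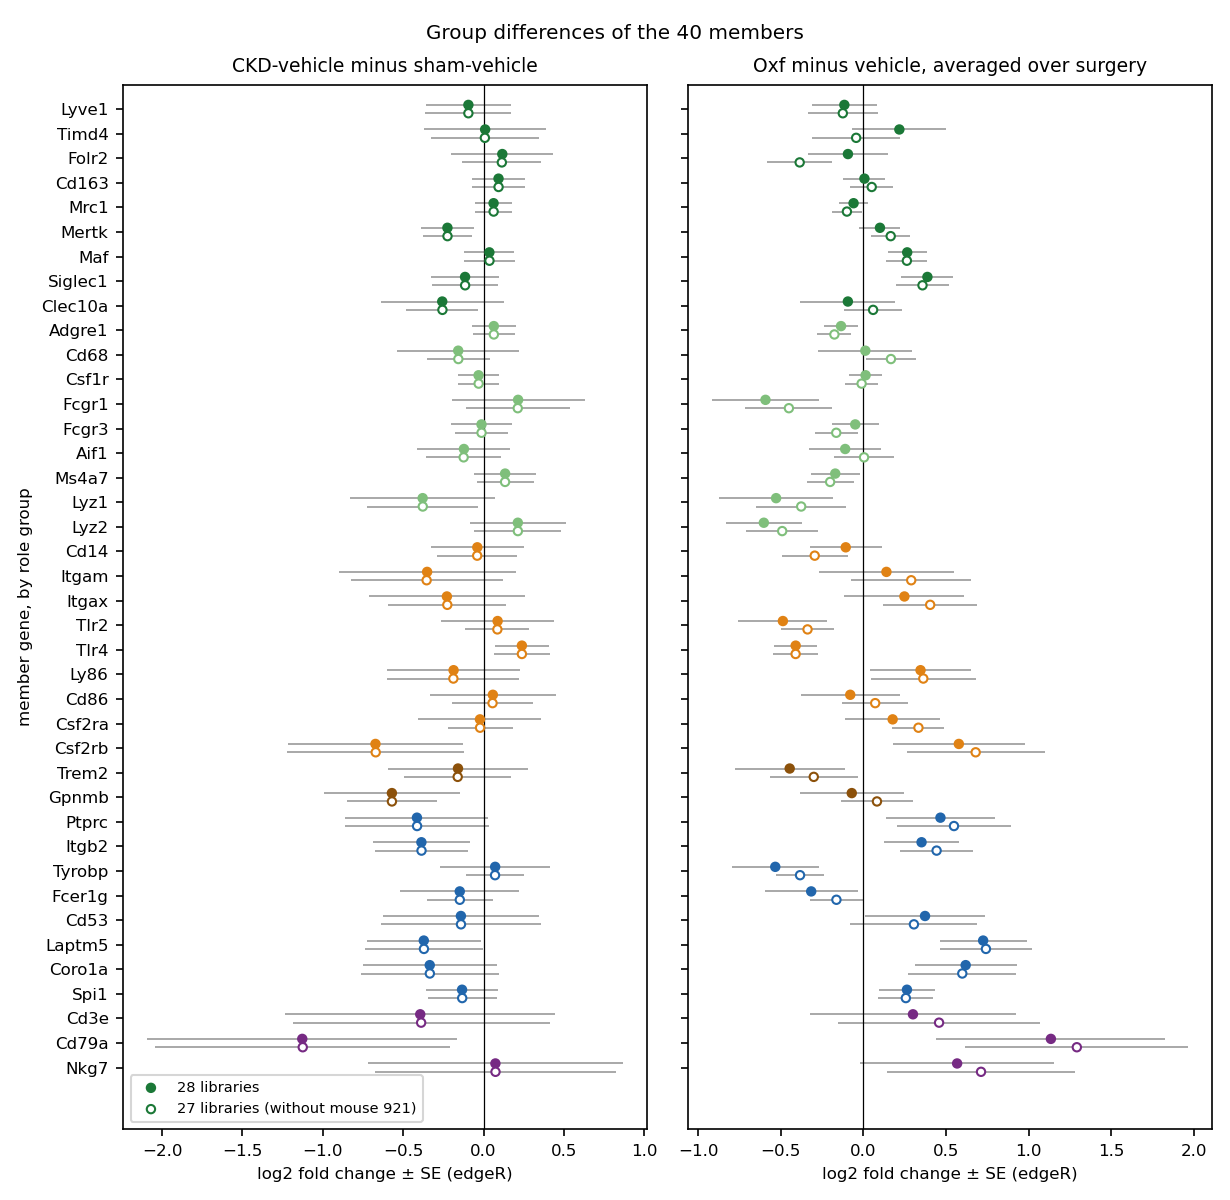
Log2 differences of the 40 members for CKD against sham under vehicle and for Oxf averaged over both surgeries, with SE bars. Filled points use 28 libraries and open points the 27 without mouse 921; genes are grouped by role. None passed an adjusted p of 0.05, and bars of Cd79a, Cd3e and Nkg7 are the widest.

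Marker lists of immune cells outside the set also gave no edgeR call in any of the 7 comparisons. For the averaged Oxf difference, 6 of 6 B cell markers (Cd79b, Ms4a1, Ighm, Ighd, Igkc and Pax5) had a value above 0 with a median of 1.39, and 10 of 11 T cell markers with a median of 0.42. Without mice 921, 923 and 936 these medians were -0.36 (0 of 6 above 0) and -0.44 (1 of 11 above 0). The median B cell sum was 38.3 CPM in sham mice with vehicle and 9.40 CPM with Oxf, and 7.65 and 9.60 CPM in CKD mice; mice 923, 936 and 940 had 1118, 761 and 487 CPM. The median of sham mice with Oxf depended on mouse 921, at 9.20 CPM with 5 of the 6 markers at a count of 0. Mice 925, 927 and 929 had 77.1, 9.40 and 6.38 CPM. Sham mice with vehicle lay either at 4.87 to 8.43 CPM or at 68.2 to 295 CPM, with none near their median. Of the further resident macrophage markers (the complement genes C1qa, C1qb and C1qc with 9 others), 6 of 12 were above 0, with a median of -0.01. Of 10 monocyte markers 7 could be tested, and 5 of these were above 0, with a median of 0.51. Their median was -0.46, with 0 of 7 above 0, without mice 921, 923 and 936. For CKD against sham under vehicle, 0 of 6 B cell markers, 1 of 11 T cell markers, 5 of 12 resident markers and 1 of 7 monocyte markers were above 0. At an unadjusted p under 0.05, none of the B cell, T cell and monocyte markers was found in either comparison, and 3 of the 12 resident markers (25%) were in the first, beside 23% of all genes. DESeq2 and limma voom called no gene of the B cell, T cell and monocyte lists in any comparison; for the averaged Oxf difference they called 1 and 2 of the 12 resident markers, beside 9.97% and 22% of all genes. In that comparison all 6 testable genes of the colony-stimulating factor axis (ligands such as Csf1 and Il34, receptors and myeloid transcription factors) were above 0 with a median of 0.33, as were 4 of 4 natural killer, 4 of 6 dendritic, 1 of 3 neutrophil and 1 of 4 mast cell markers, without an edgeR call. When mice 921, 923 and 936 were left out, these counts were 5 of 6, 1 of 4, 2 of 6, 3 of 6 and 1 of 4. More neutrophil markers could be tested in that fit.

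Differences between mice of the same group were largest for the lymphocyte genes. In the 27 libraries the SD of log2 CPM within groups had a median of 0.41 over the resident, 0.37 over the general macrophage, 0.49 over the innate, 0.67 over the pan-leukocyte and 1.52 over the lymphocyte genes. It was above the median of all genes tested, 0.43, for 3 of 9 resident and 3 of 9 general macrophage genes, among them Lyz1 (0.70) and Timd4 (0.68), and for 3 of 3 lymphocyte genes. The SD was 0.21 for Mrc1, 0.24 for Adgre1, 0.25 for Csf1r and 0.31 for Mertk, the 4 smallest of the set. At the other end it was 1.76 for Cd79a, 1.52 for Cd3e, 1.26 for Nkg7, 1.06 for Csf2rb and 1.01 for Cd53, a tetraspanin of leukocytes. Cd79a thus spanned 0.354 to 18.1 CPM, a 51.2-fold range, while Csf1r spanned 22.5 to 39.7 CPM, a 1.76-fold range. Level alone did not order the genes in this way: Ptprc, with a mean log2 CPM of 4.41 close to the 4.88 of Csf1r, had an SD of 0.86 against 0.25.

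By role the median SD was 0.41 for resident, 0.37 for general macrophage, 0.49 for innate, 0.63 for lipid-phagocyte, 0.67 for pan-leukocyte and 1.52 for lymphocyte genes. Within the pan-leukocyte group the adaptors Tyrobp (0.32) and Fcer1g (0.40) and the transcription factor gene Spi1 (0.42), which encodes PU.1, varied less than Ptprc, Cd53, Coro1a and Laptm5 (0.75 to 1.01).

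**Figure D4:**
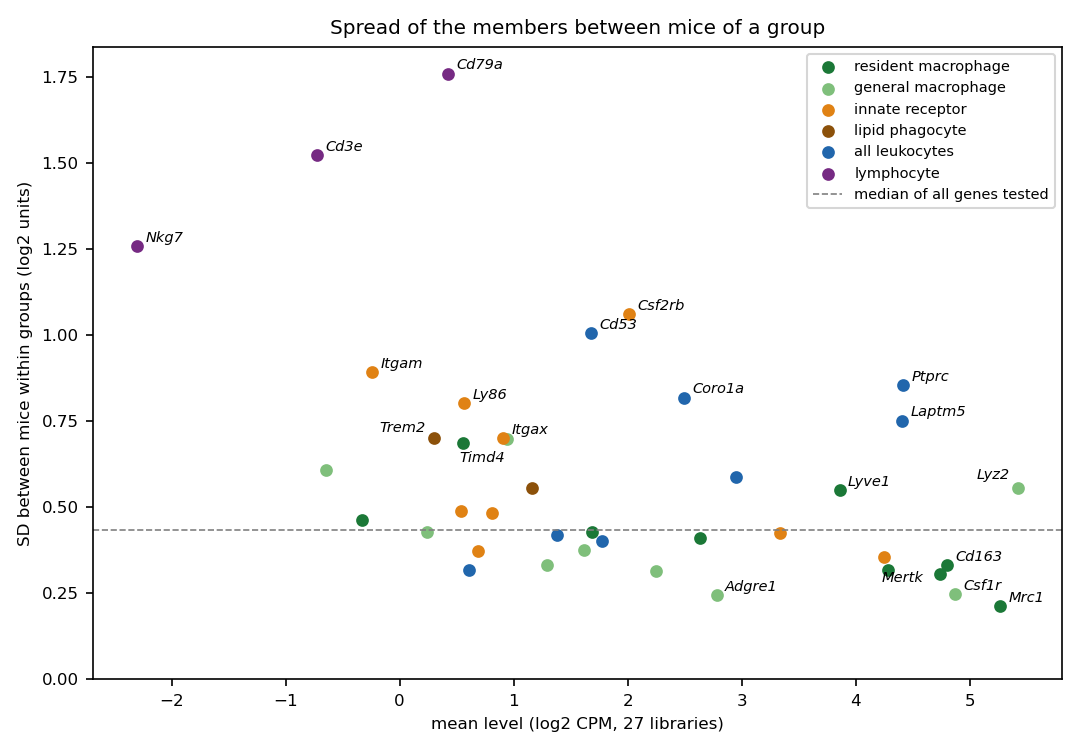
Within-group SD of log2 CPM against mean log2 CPM for the 40 members in 27 libraries, coloured by role; the dashed line is the median SD over all genes tested (0.43). Mrc1, Csf1r and Adgre1 lie below the line, and Cd79a, Cd3e and Nkg7 at the top, with Ptprc above the line in spite of its high level.

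The same animals were the highest for many genes. Mouse 923 (sham with Oxf) was the highest of the 28 libraries for 12 members, mouse 936 (CKD with Oxf) for 7 and mouse 916 (CKD with vehicle) for 6. Mice 923 and 936 were among the top 3 for 6 of 8 pan-leukocyte, 3 of 3 lymphocyte and 5 of 9 innate genes each. Mouse 916 was instead among the top 3 for 3 of 9 resident and 5 of 9 general macrophage genes and for no lymphocyte gene. Its library had the highest Lyz2 (112 CPM), Csf1r (39.7 CPM), Adgre1 (10.4 CPM) and Tyrobp (2.86 CPM) together with 0.491 CPM of Cd79a.

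Among the 10 sham mice with vehicle, mice 901, 902, 906, 908 and 910 were the 5 highest for Ptprc. The same 5 mice were the 5 highest for 10 of the 40 members, Ptprc included. These were 5 of 8 pan-leukocyte genes (Ptprc, Itgb2, Cd53, Laptm5 and Coro1a), all 3 lymphocyte genes, and Csf2rb and Ly86 of the innate genes. The share of all genes with the same 5 mice at the top was not determined, so these counts cannot be set against a background. None of the 9 resident and none of the 9 general macrophage genes had these 5 mice at the top: they shared 2 to 4 of them. Of these 18 genes 6 shared 4 (Timd4, Maf, Siglec1, Clec10a, Cd68 and Lyz1), 8 shared 3, Csf1r and Adgre1 among them, and 4 shared 2, Mrc1 among them. The innate gene Tlr4 shared 1, the fewest of the 40 members. Coro1a was 6.16 to 9.92 CPM in these 5 mice and 3.49 to 5.16 CPM in the other 5 sham mice with vehicle. Csf2rb was 6.00 to 10.0 CPM in them and 1.57 to 2.57 CPM in the others, and Cd79a 2.01 to 6.59 CPM and 0.361 to 0.731 CPM. That the 2 sets of 5 mice do not overlap for these 3 genes follows from choosing them among the 10, so it is no separate result. For Itgb2, also among the 10, the gap was negligible, with 8.10 CPM in mouse 901 and 8.09 CPM in mouse 909.

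The same 5 sham vehicle mice were also the 5 highest for the summed B cell, T cell and monocyte markers and for the summed adipose tissue markers (Adipoq, Plin1, Cidec, Lep, Retn and Car3). The B cell sum was 68.2, 249.9, 257, 237 and 295 CPM in mice 901, 902, 906, 908 and 910, and 4.87 to 8.43 CPM in the other 5. The adipose sum was 247, 293, 171, 301 and 667 CPM in the former, and 6.22 to 80.6 CPM in the latter. They had the 5 lowest 7SL shares as well, 7.82%, 4.19%, 2.30%, 9.40% and 5.33%, against 10.8% to 19.9%. Lymphatic endothelial markers shared 3 of the 5 mice, thymus markers 4 and mesothelial markers 4. The part of these markers in the leukocyte gene levels was not tested, and the 7SL share was used as a covariate only in the comparisons between groups.

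In the other groups the mice highest for Cd79a likewise had high B cell sums and low 7SL shares. Mouse 923 had 1118 CPM of B cell markers, 226 CPM of adipose markers and a 7SL share of 1.83%. Mouse 936 had 761 CPM, 576 CPM and 1.95%, mouse 940 had 487 CPM, 420 CPM and 2.52%, and mouse 919 had 176 CPM, 326.5 CPM and 2.26%. A low 7SL share was also found without a high B cell sum: mouse 927 had 2.70% with 9.40 CPM, and mouse 929 had 3.66% with 6.38 CPM. Mouse 925 had 316 CPM of adipose markers and 77.1 CPM of B cell markers, beside 247 and 68.2 CPM in mouse 901. The defining thymus gene Rag1 was 0 in the median library and 2.80 CPM at most, and summed thymus markers stayed at 0.273 to 5.43 CPM. Cardiomyocyte markers were present in all of these libraries, but their sums differed. They were 16910, 21390, 24840, 21920 and 20510 CPM in sham vehicle mice 901, 902, 906, 908 and 910. In sham vehicle mice 903, 904, 905, 907 and 909 they were 27240 to 31700 CPM. Mice 923, 936, 940 and 919 had 18840, 22930, 25360 and 29540 CPM, and mice 927 and 929 had 24960 and 22540 CPM. The part of these sums in the leukocyte gene levels was not tested.

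**Figure D5:**
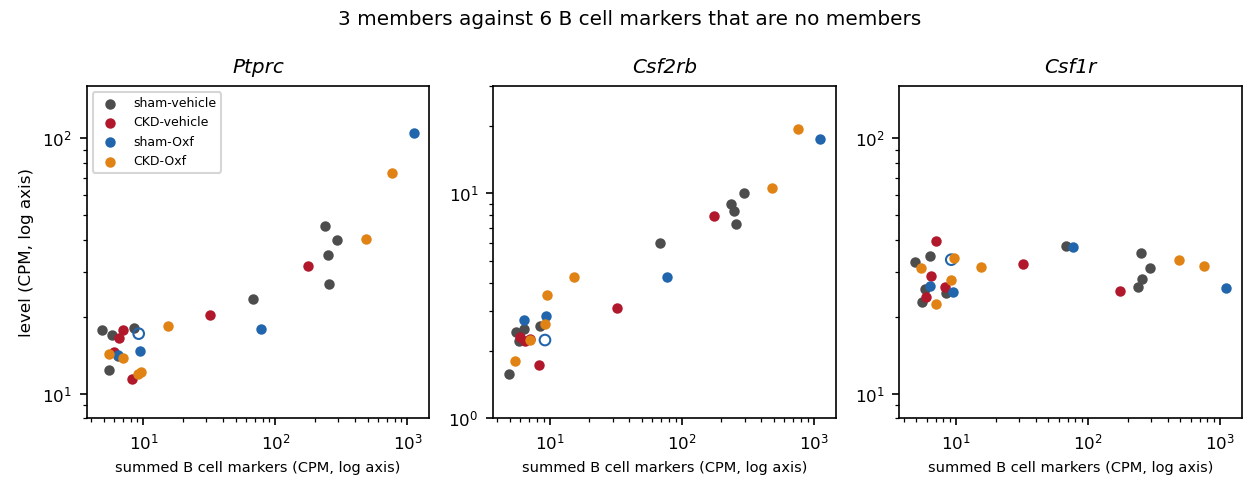
Ptprc, Csf2rb and Csf1r (CPM) against the summed CPM of 6 B cell markers in 28 hearts, both axes logarithmic; colours are groups and the open circle is mouse 921. Ptprc and Csf2rb are high in mice 923 and 936, at the right end of the axis, while Csf1r stays between 22.5 and 39.7 CPM.

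Within the 10 sham vehicle mice, Csf1r was set against 8 other members. Csf1r and Adgre1 varied together, with a Pearson r of 0.933 (two-sided test with 100000 permutations, adjusted permutation p over 8 relations = 0.00176) and a Spearman rho of 0.903 (adjusted permutation p = 0.00608). Without the 2 libraries farthest from the Csf1r median r was 0.900 (adjusted permutation p = 0.0515). For Csf1r and Lyz2 r was 0.695 (permutation p = 0.033, adjusted 0.132; rho 0.588, adjusted 0.222), and r was 0.304 with Cd163 and 0.225 with Itgam (both adjusted permutation p = 0.595; rho 0.164 and 0.212, adjusted 0.751 and 0.748). With Ptprc, Cd3e, Cd79a and Nkg7 r was 0.229, 0.453, 0.168 and 0.512 (adjusted permutation p = 0.595, 0.368, 0.631 and 0.354; rho 0.273, 0.588, 0.103 and 0.491, adjusted 0.716, 0.222, 0.788 and 0.310). For these 4 genes the values pool the 5 high and the 5 low mice described above, and sets of 5 are too small for a correlation within each. These libraries also share the marker and 7SL differences given above.

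Promoter sequence was examined for a motif that the leukocyte genes share. PU.1, the product of Spi1, is the transcription factor of myeloid and B cells and binds sites with a GAGGAA core. RefSeq promoter entries of build GRCm38.p6 were matched by symbol for 27 of the 40 members, giving 32 entries, and GAGGAA was searched on both strands in the 250 bases before each start. It was found in 14 of 32 member entries (43.8%), of 13 members, and in 7639 of all 32851 promoters of that length (23.3%). Of these, 4 are shown: Mrc1, with the smallest spread between mice; Itgam and Cd53, innate and pan-leukocyte genes with a large one; and Cd79a, with the largest. Capitals mark the core, read as GAGGAA or, on the opposite strand, as TTCCTC; the Mrc1 and Cd79a sequences end where the annotated gene begins. The Mrc1 sequence is chr2:14229164-14229391 on the plus strand, Itgam chr7:128062390-128062639 on the plus strand, Cd53 chr3:106790150-106790399 on the minus strand and Cd79a chr7:24897247-24897380 on the plus strand.
Mrc1: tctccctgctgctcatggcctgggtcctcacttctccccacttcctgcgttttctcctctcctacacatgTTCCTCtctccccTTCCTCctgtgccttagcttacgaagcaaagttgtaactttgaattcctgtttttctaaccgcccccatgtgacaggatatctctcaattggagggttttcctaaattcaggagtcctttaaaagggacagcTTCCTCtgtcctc
Itgam: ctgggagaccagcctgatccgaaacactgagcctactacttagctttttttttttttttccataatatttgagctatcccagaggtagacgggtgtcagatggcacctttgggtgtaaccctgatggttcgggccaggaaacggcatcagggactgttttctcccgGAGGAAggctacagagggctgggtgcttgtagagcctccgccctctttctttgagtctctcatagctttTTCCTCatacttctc
Cd53: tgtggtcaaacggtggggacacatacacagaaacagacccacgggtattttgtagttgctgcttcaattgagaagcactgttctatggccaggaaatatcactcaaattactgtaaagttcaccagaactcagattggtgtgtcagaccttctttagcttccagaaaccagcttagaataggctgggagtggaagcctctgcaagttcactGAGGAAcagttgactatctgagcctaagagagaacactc
Cd79a: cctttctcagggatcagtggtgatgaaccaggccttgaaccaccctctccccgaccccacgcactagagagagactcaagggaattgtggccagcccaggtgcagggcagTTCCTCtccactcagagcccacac

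The matches begin 180, 167 and 35 bases before the RefSeq start in Mrc1, 84 and 15 in Itgam, 39 in Cd53 and 140 in Cd79a. These 4 were picked among the entries with the core, so they cannot relate it to the spread between mice. Entries without the core also belonged to genes of small spread (Mertk and Cd163) and of large spread (Nkg7 and Coro1a). Csf1r, Adgre1 and Csf2rb had no entry. Spi1 itself was measured at 1.44 to 3.91 CPM in sham and 1.76 to 3.19 CPM in CKD mice with vehicle, at 3.23, 4.50, 3.76, 2.22 and 1.82 CPM in sham mice 921, 923, 925, 927 and 929 with Oxf and at 1.72 to 4.19 CPM in CKD mice with Oxf. These ranges overlapped in all 4 groups.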

How the data were processed

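RNA-seq of ventricular myocardium from 28 mice was analysed, 1 library per mouse. The authors deposited 1 table of raw counts per gene. Per the submitters' processing notes, these counts were made with FastQC 0.11.7, MultiQC 1.9, STAR 2.6.1d, Subread and featureCounts 1.6.3 on build mm10; the annotation and the strand setting are not given in the sources used here, so reads from overlapping genes cannot be told apart (Coro1a and Bola2 lie on opposite strands, and Ptprc, Csf1r, Mrc1, Mertk, Itgam and Cd3e overlap other gene models). All 45513 genes were used for library totals. Of their identifiers 45465, those of all 40 members included, were found in GENCODE M21, from which exon lengths were taken.

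From the counts, edgeR 4.0.16 (R 4.3.3) was run with trimmed-mean-of-M-values scaling, filterByExpr with a minimum count of 10, robust dispersions and quasi-likelihood tests of 4 group means, with Benjamini-Hochberg adjustment over all genes tested and a threshold of 0.05. SE is the absolute log2 difference divided by the square root of F. Log2 CPM used a prior count of 2. The procedure was tested on simulated data. Each library is a separate mouse, and groups were taken from the labels.

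The members and all gene lists were chosen with earlier results of these data known. Levels were described for up to 5 anchor members per role, and differences for the 2 members with the smallest p in each comparison. Itgb2 and Laptm5 in CKD mice, Csf1r, Adgre1, Cd79a, Ptprc, Cd14, Tyrobp, Fcgr3 and Gpnmb with their differences, Cd53, Siglec1 and Ly86 levels, and the overlap of high mice were named after their values had been seen. For the B cell list, 1 marker is not reported here and entered no count or sum.

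Alternatives were DESeq2 1.42.0, voom of limma 3.58.1 with a weight per sample, scaling by size factors of DESeq2, no filter on low counts, at least 10 counts in every library, a clock gene score or the log2 7SL share as a covariate, only the 2 groups compared, and leaving out each library. Leaving out mice 921, 923 and 936 together was added after seeing the data. It removed mice with Oxf only and kept high mice with vehicle, so it shows dependence on these libraries and not a direction of the Oxf difference.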

Additional observations from a re-analysis of the deposited data

Results flagged for a closer look

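Within each group the gap between an extreme library and its nearest neighbour was divided by the whole range of the group, over 29 measures (116 group comparisons). By Dixon's 95% limits 16 extremes stood apart, where about 1 in 20, or 5.8, would be so by chance.

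Mouse 921 accounted for 9 of them, all among sham mice with Oxf. It had the fewest genes with a count (gap of 0.7964 of the range) and the highest 7SL share of its group (10.3%; 0.7843). It was the lowest for Cd68 (0.8533), Tlr2 (0.9181), Trem2 (0.8761), Gpnmb (0.893), Tyrobp (0.9073) and Fcer1g (0.8034), each with a count of 0, and the highest for Cd14 (0.7894). Mouse 923 was the highest of the same group for summed B cell markers (1118 CPM; 0.9364) and for Ptprc (105 CPM; 0.8796).

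Among CKD mice with vehicle, mouse 919 was the highest for summed B cell markers (176 CPM; 0.8462), Cd3e (2.75 CPM; 0.6809) and Nkg7 (0.740 CPM; 0.6473). Mouse 916 was the highest of that group for Lyve1 (22.7 CPM; 0.6613) and Tyrobp (2.86 CPM; 0.6256).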

How the results depend on the processing

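The count of members called was 0 in all alternatives run for 5 of the 7 comparisons. For Oxf against vehicle in CKD mice it was 2 with limma voom (Mertk and Tlr4) and 0 to 1 when 1 library was left out (1, Tlr4, without mouse 934). For the averaged Oxf difference it was 1 with DESeq2 (Tlr4), 2 with limma voom (Lyz2 and Tlr4), 1 with at least 10 counts in every library (Tlr4; only 22 members were then tested), and 0 to 2 when 1 library was left out. It was 1, Tlr4, without mouse 902, 906 or 919, and 2, Lyz2 and Tlr4, without mouse 934. The median member difference of the interaction was 0.11, and 0.05272 to 0.4714 when 1 library was left out, the last without mouse 923. The Mertk difference of CKD against sham under vehicle was 0.005081 with the clock score as covariate. Without the 2 libraries farthest from the Csf1r median, the r of Csf1r was 0.8999 with Adgre1, no longer past the threshold, -0.04009 with Itgam and -0.01364 with Ptprc, against 0.933, 0.225 and 0.229. The causes were not tested.

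The fit of only the 2 groups compared could not be had for the averaged differences and the interaction. No paired analysis was possible because replicate numbers follow accession order and no mouse number occurs in more than 1 group. With SEs of 0.8 to 1.0 on the log2 scale for lymphocyte genes in the pairwise comparisons, differences of that size were not detectable, and low members such as Nkg7 rest on few reads.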
